A study of Mus musculus with 653 samples.

Results

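The genes described are 10 transcription factors and co-factors of red blood cells and blood stem cells, *Gata1*, *Gata2*, *Klf1*, *Tal1*, *Nfe2*, *Gfi1b*, *Zfpm1*, *Lmo2*, *Ldb1* and *Myb*, taken by name from a count table of 54195 features. Reads were present for 9 of the 10, and *Zfpm1*, which encodes the GATA1 partner FOG1, was listed at 0 in every cell. The table holds single cells from embryonic mouse livers, each sequenced as its own Smart-seq2 library, a full-length method without molecular identifiers. All embryos came from *Lgr5-EGFP-IRES-creERT2* males, kept on a C57BL/6 background, and MF1 females, so that every group carries the reporter cross. The 4 groups, a bulk and an Lgr5-GFP+ sort at each of E10.5 and E13.5, were spread over 5 sequencing pools, with 37 to 42 bulk and 38 to 47 Lgr5-GFP+ cells per pool at E10.5 and 24 to 34 bulk and 7 to 27 Lgr5-GFP+ cells per pool at E13.5. Bulk cells were sorted as Liv2+ CD31- CD45-, Liv2 being a surface marker of liver progenitors, CD31 an endothelial marker and CD45, the product of *Ptprc*, a leukocyte marker. Lgr5-GFP+ cells passed the same gates and were also positive for the GFP knocked into the *Lgr5* locus. Cells of each group came from several sorts, but the labels tie no cell to an embryo or a sort, and a group therefore counted as 1 sample. Accordingly no p-value is given, differences are described by their size, and the pools, each of which holds cells of all 4 groups, serve as batches. Whether differences between pools are technical or come from embryos or sorts cannot be told from the labels. Intervals are exact 95% intervals that cover counting error only.

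The fetal liver is the main site where definitive red blood cells are made, and megakaryocytes, mast cells and leukocytes share progenitors with that lineage. GATA1 and GATA2 bind the same DNA motif, and their exchange on target genes as GATA1 rises and GATA2 falls is a known step of red cell formation. TAL1, LMO2 and LDB1 assemble with GATA1 into a complex on erythroid enhancers, KLF1 activates adult globin and other erythroid genes through CACCC motifs, GFI1B is a repressor that acts with GATA1, NFE2 binds globin control regions and is needed for platelet formation, and MYB keeps blood progenitors dividing.

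RefSeq start-site windows of 300 bases (GRCm38.p6) were present for 8 of the 10 genes, 12 windows in all. They were read for 3 motifs on both strands. The GATA motif (GATAA or GATAG after an A or a T) was found in 4 of the 12 windows and in 29.8% of all 32851 windows, CACCC in 10 of 12 and 57.5%, and the E-box CANNTG, the motif of TAL1 partners, in 7 of 12 and 72.3%. A match is a description of letters and not of binding. The 4 windows with the GATA motif are those of *Klf1* and *Gfi1b* and the upstream window of *Tal1*, with 1 each, and 1 of the 3 windows of *Ldb1*, with 2. The window of *Gata1* holds none of these letters and 2 CACCC motifs. The windows lie at chr8:84901732-84902031 (plus strand) for *Klf1*, chr2:28621933-28622232 (minus strand) for *Gfi1b*, chr4:115056176-115056475 (plus strand) for *Tal1* and chrX:7967861-7968160 (minus strand) for *Gata1*. They are printed from 5′ to 3′ along the gene, with the GATA motif of either strand in capitals, to show where it stands in 3 members and that the window of *Gata1* lacks it.
Klf1: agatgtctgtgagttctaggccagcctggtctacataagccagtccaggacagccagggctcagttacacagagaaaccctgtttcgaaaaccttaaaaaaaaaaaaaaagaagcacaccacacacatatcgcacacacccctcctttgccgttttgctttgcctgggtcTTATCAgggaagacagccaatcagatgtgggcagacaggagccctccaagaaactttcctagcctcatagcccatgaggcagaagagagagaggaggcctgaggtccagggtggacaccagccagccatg
Gfi1b: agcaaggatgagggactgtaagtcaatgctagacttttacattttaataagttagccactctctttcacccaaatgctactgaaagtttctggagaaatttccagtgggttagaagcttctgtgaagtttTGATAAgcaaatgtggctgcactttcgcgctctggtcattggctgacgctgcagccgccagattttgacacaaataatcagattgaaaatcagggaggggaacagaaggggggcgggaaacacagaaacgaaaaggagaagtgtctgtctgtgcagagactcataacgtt
Tal1: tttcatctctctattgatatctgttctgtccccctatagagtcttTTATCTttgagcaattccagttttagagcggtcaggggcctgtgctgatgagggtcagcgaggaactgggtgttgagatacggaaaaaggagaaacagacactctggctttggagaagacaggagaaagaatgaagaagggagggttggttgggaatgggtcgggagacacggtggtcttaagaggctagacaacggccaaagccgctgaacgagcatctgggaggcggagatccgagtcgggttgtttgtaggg
Gata1: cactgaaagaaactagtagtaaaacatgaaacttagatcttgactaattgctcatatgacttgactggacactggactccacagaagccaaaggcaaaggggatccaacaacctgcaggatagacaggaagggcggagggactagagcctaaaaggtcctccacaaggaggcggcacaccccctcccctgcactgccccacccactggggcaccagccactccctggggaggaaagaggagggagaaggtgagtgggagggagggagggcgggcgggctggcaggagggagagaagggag

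Cells with more than 10 *Gata1* reads made up 23.4% of all cells and are called *Gata1* cells below. In the bulk sort they were 66.7% of the cells at E13.5 (interval 58.8% to 73.9%, with 21, 8, 28, 30 and 19 such cells in pools 1 to 5) and 18.2% at E10.5 (37 cells, 13.2% to 24.2%). In the Lgr5-GFP+ sort they were 8.75% at E13.5 (7 of 80 cells, 3.59% to 17.2%) and 1.42% at E10.5 (3 cells, 0.294% to 4.10%). At both stages the share was lower after the GFP gate, and in both sorts it was higher at E13.5. The pools differed widely: in E13.5 bulk the share ran from 23.5% in pool 2 to 88.2% in pool 4, and in E10.5 bulk from 2.38% in pool 1 to 38.1% in pool 4. The bulk share was above the Lgr5-GFP+ share of the same stage and pool in all 10 pairs of groups and pools. At E10.5 this rested on single cells in pool 1 (1 of 42 bulk, 0 of 45 Lgr5-GFP+ cells) and pool 2 (1 of 41, 1 of 47). Few cells stood near the limit, with 6 cells at 5 to 10 *Gata1* reads, 8 cells at 11 to 20, 3 cells at 21 to 50 and 21.7% of all cells above 50. A further 20.1% of all cells held 1 to 4 *Gata1* reads. Total reads ran from 463347 to 2279700 per cell, with a median of 1192740 over all cells and 1112600 in *Gata1* cells. Depth thinned to 400000 reads left the shares at 64.2% and 16.7% in bulk and at 7.50% and 0.948% in Lgr5-GFP+ cells, E13.5 first.

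The labels call all cells liver hepatoblasts. Of the *Gata1* cells, 3 had more than 10 reads of at least 3 of 8 hepatoblast genes and 73.9% had more than 10 reads of at least 3 of 9 red cell membrane and receptor genes, called erythroid-marked here. *Gata1* cells without *Pf4*, a platelet granule gene, and without *Ptprc*, each at no more than 10 reads, were 80.4% of the *Gata1* cells and are called *Gata1*-only cells. Of these, 81.3% were erythroid-marked and 23 cells were not. By the same limit of more than 10 reads of at least 3 genes of a list, the class includes 3 cells marked by hepatoblast, 3 by endothelial, 3 by megakaryocyte and 5 by leukocyte genes, and single cells reached 25773 RPM of summed hepatoblast and 5375 RPM of summed endothelial genes.

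The other members were found mostly in the same cells. *Klf1* had more than 10 reads in 25.4% of all cells, and 78.3% of those were *Gata1* cells. For *Nfe2* the values were 20.98% and 82.5%, for *Gfi1b* 20.2% and 87.9%, for *Tal1* 20.1% and 80.9%, for *Myb* 15.6% and 77.5%, and for *Lmo2* 33 cells of which 31 were *Gata1* cells. *Gata2* and *Ldb1* were spread more widely, *Gata2* with 26 of its 53 cells and *Ldb1* with 98 of its 247 cells among the *Gata1* cells. Across the 4 groups the shares of cells for *Klf1*, *Tal1*, *Nfe2*, *Gfi1b*, *Myb*, *Gata2* and *Ldb1* were, like that of *Gata1*, highest in E13.5 bulk and next highest in E10.5 bulk. In the Lgr5-GFP+ sort *Myb*, at 2.84% at E10.5 and 1.25% at E13.5, and *Ldb1* were lower at E13.5, unlike *Gata1*. *Klf1* went from 0.474% in E10.5 Lgr5-GFP+ (1 cell) to 79.2% in E13.5 bulk, the largest share of any member in any group. *Ldb1*, whose product links enhancers to promoters in many tissues, was nearly as frequent in both sorts at E10.5, with 34.6% in Lgr5-GFP+ against 36.9% in bulk at E10.5, and 20% against 52.2% at E13.5. Its pools were far apart as well, from 7.14% to 59.5% in E10.5 bulk. *Lmo2* was the 1 member with another next highest group, at 16.4% in E13.5 bulk, 3.75% in E13.5 Lgr5-GFP+ (3 cells), 1.97% in E10.5 bulk (4 cells) and 0 cells in E10.5 Lgr5-GFP+, which allows a share of up to 1.73%.

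**Figure D1:**
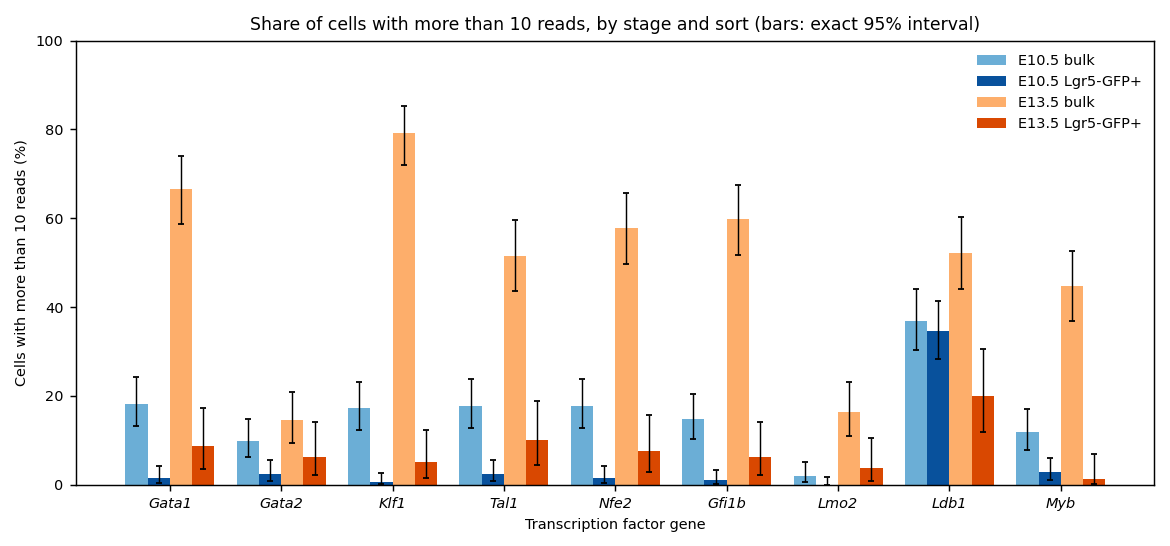
Share of cells (%, vertical axis) with more than 10 reads of each of the 9 members with reads, in the 4 groups, with exact 95% intervals as black bars. E13.5 bulk is highest for each gene and the Lgr5-GFP+ bars are low except for *Ldb1*, which stands at 34.6% in the E10.5 Lgr5-GFP+ group.

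Compared per kilobase of exon, the members differed by over 100-fold in level. In the *Gata1* cells, *Klf1* stood at 761 RPKM (summed reads normalised to exon length and to total reads), *Gfi1b* at 276, *Gata1* at 225, *Nfe2* at 93.5, *Tal1* at 30.5, *Ldb1* at 14.9, *Myb* at 9.04, *Lmo2* at 8.77 and *Gata2* at 6.07. *Gfi1b* and *Gata1*, and likewise *Myb* and *Lmo2*, are neighbours in this order that lie within each gene's own spread over pools, *Gata1* having been at 384 to 1020 RPM (reads normalised to total reads alone) and *Gfi1b* at 212 to 682 RPM over the 5 pools. A median of 6 of the 9 members had more than 10 reads in a *Gata1* cell, the range being 1 to 9, and all 9 were present together in 2 cells. Pairs of members agreed only loosely from cell to cell: the largest Pearson r of log2(RPM + 1) between members was 0.34 (*Tal1* and *Gfi1b*) and the lowest -0.38 (*Gata2* and *Klf1*), a description over cells that share pools and depth.

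The order along globin came next. Reads of 8 globin genes were summed in each *Gata1* cell and the cells were cut into 4 bins of 39, 38, 38 and 38 cells by globin level, from 0.678 to 97.7 RPM in the lowest, 99.4 to 478, 538 to 2691 and 3165 to 118788 RPM in the highest. The embryonic gene *Hbb-bh1* stood at 2654 RPM in E10.5 and 20.6 RPM in E13.5 *Gata1* cells, and the adult gene *Hbb-bs* at 319 and 2954 RPM, so the globin behind the order differs by stage. The embryonic genes *Hbb-y*, at 14.5 and 32.1 RPM, and *Hba-x*, at 31.3 and 40.7 RPM, did not share the fall of *Hbb-bh1*. The bins held 12, 10, 11 and 7 E10.5 cells. They held 0, 5, 12 and 5 cells of pool 1, so the bins differed by pool as well. Globin reads were also found in cells with more than 10 reads of at least 3 mesenchyme genes and no more than 10 of *Gata1*. There *Hbb-y* ran from 0.0256 to 112.5 RPM over pools, the upper value lying above the 97.7 RPM that closed the lowest bin. How far such differences between pools moved cells between bins was not tested.

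Along this order *Klf1* was higher and *Gata2* and *Myb* lower at the globin-rich end. Between the end bins *Klf1* and *Gata2* differed the same way at both stages, while *Myb* was lower at E13.5 alone. *Klf1* stood at 582, 759, 1365 and 2008 RPM in the 4 bins. Single cells of the lowest bin ran from 0 to 2731 RPM with a median of 596, and those of the highest from 0 to 8859 with a median of 1944. The log2 ratio of the highest to the lowest bin was 1.79. Within the 3 pools that had at least 5 cells in both it was 0.84 to 1.70, in each below the value over all cells. The groups of cells overlapped, and *Klf1* was above 10 reads in 25 of 39 cells of the lowest bin and 33 of 38 of the highest.

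*Gata1* itself stood at 350, 622, 498 and 749 RPM. Its reads chose the cells and so cut off its low values, and no result is read from its direction along globin. Its cells ran from 6.03 to 1685 RPM (median 316) in the lowest bin and from 14.2 to 2253 RPM (median 689) in the highest, a log2 ratio of 1.10 with pools at 0.58 to 1.15. With cells chosen by at least 1 *Gata1* read the ratio was 3.31, so its size depended on that choice. *Gfi1b* was higher in each bin than in the one before, from 336 through 444 and 581 to 672 RPM, and its log2 ratio of 0.998 lay just under 2-fold, with pools at 0.52 to 1.91. Both genes overlapped between the end bins. In E10.5 cells alone the log2 ratio of *Gfi1b* was 0.25 and that of *Klf1* 0.70.

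*Gata2* went the other way and was nearly absent at the globin-rich end. It stood at 85.2 RPM in the lowest bin (3953 reads) and 0.0715 RPM in the highest (3 reads in 38 cells), a log2 ratio of -10.22 with an exact interval of -12.50 to -8.67. Cells with more than 10 *Gata2* reads numbered 12, 10, 4 and 0 in the 4 bins, and the zero allows a share of up to 9.25%. Most cells had none at either end, the median being 0 RPM in every bin and the highest cell 2380 RPM in the lowest bin against 1.39 RPM in the highest. Per kilobase, *Gata2* stood at 15.8 RPKM against 143.5 RPKM for *Gata1* in the lowest bin and at 0.0132 against 307 in the highest. *Gata2* was above *Gata1* per kilobase in 4 of all *Gata1* cells, 2 of them in the lowest bin and 2 in the next.

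Most of the *Gata2* reads of the lowest bin lay in cells with other blood markers. Of its 3953 reads, 2583 were in the 3 cells with *Ptprc*, and 1 of these, which also had *Pf4*, held 1984. That bin held 9 cells with more than 10 *Pf4* reads and 3 with more than 10 *Ptprc* reads, against 8 and 0 in the highest. Summed mast cell and basophil genes, of which 4 of 8 had reads, stood at 98.4 RPM in the lowest and 1.05 RPM in the highest bin. Without the cells with *Pf4* or *Ptprc* the log2 ratio of *Gata2* was -8.59, so the direction was the same among *Gata1*-only cells. Spearman's rho of *Gata2* with globin was -0.19 over the *Gata1*-only cells and -0.33 over all *Gata1* cells. The end bins of each stage alone gave -10.19 at E13.5 and -7.27 at E10.5. With each stage cut at its own median globin level, however, *Gata2* stood at 62.7 RPM in the lower and 3.19 RPM in the upper E13.5 cells, but at 27.1 and 38.3 RPM in the E10.5 cells. The highest of the upper E10.5 cells stood at 501.6 RPM. Cells above 10 *Gata2* reads were 6 of 20 lower and 4 of 20 upper E10.5 cells. At E10.5 the direction thus held for the end bins and these cell counts, and not for the summed reads of this cut.

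*Myb* stood at 80.2, 136.3, 95.98 and 9.25 RPM, with 26, 27, 22 and 4 cells above 10 reads. Its cells ran from 0 to 312 RPM (median 40.4) in the lowest bin and from 0 to 182.6 RPM (median 0) in the highest. The log2 ratio was -3.12, with pools from -9.06 to -1.36. In E13.5 cells alone it was -9.33, and in E10.5 cells alone it turned to 2.96. When each stage was cut at its own median globin level, *Myb* stood at 123.2 RPM in the lower and 42.3 RPM in the upper E13.5 cells, with 44 of 57 and 14 of 56 cells above 10 reads. In E10.5 cells the values were 66.1 and 87.01 RPM, with 9 of 20 and 12 of 20 cells. Spearman's rho with globin was -0.58 over the E13.5 cells and 0.20 over the 40 E10.5 cells, whereas *Klf1* had 0.57 and 0.41, and *Gata2* -0.30 and -0.36. These are descriptions over cells of shared pools.

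The remaining 4 members were less than 2-fold apart between the end bins. *Tal1* stood at 141.1 RPM in the lowest and 137.2 RPM in the highest bin (log2 ratio -0.04, pools -0.39 to 0.59), *Nfe2* at 299 and 400 RPM (0.42, pools -0.02 to 1.11), *Lmo2* at 31.4 and 21.5 RPM (-0.55, pools -2.19 to 2.79) and *Ldb1* at 70.2 and 40.01 RPM (-0.81, pools -0.78 to 0.11). The pools gave *Lmo2* opposite signs. *Tal1* was above 10 reads in 27 of 39 cells of the lowest and 28 of 38 of the highest bin, *Ldb1* in 26 and 19 (medians of 28.97 and 8.77 RPM) and *Lmo2* in 9 and 7 (medians of 0.861 and 2.21 RPM). Some of these values passed 2-fold under other settings: *Lmo2* was at -1.40 without *Pf4* and *Ptprc* cells and at -2.67 in E10.5 cells alone, *Ldb1* was at -1.25 in E13.5 cells alone and -1.22 without pool 3, and *Gfi1b* was at least 2-fold higher in 9 of the 16 other settings.

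**Figure D2:**
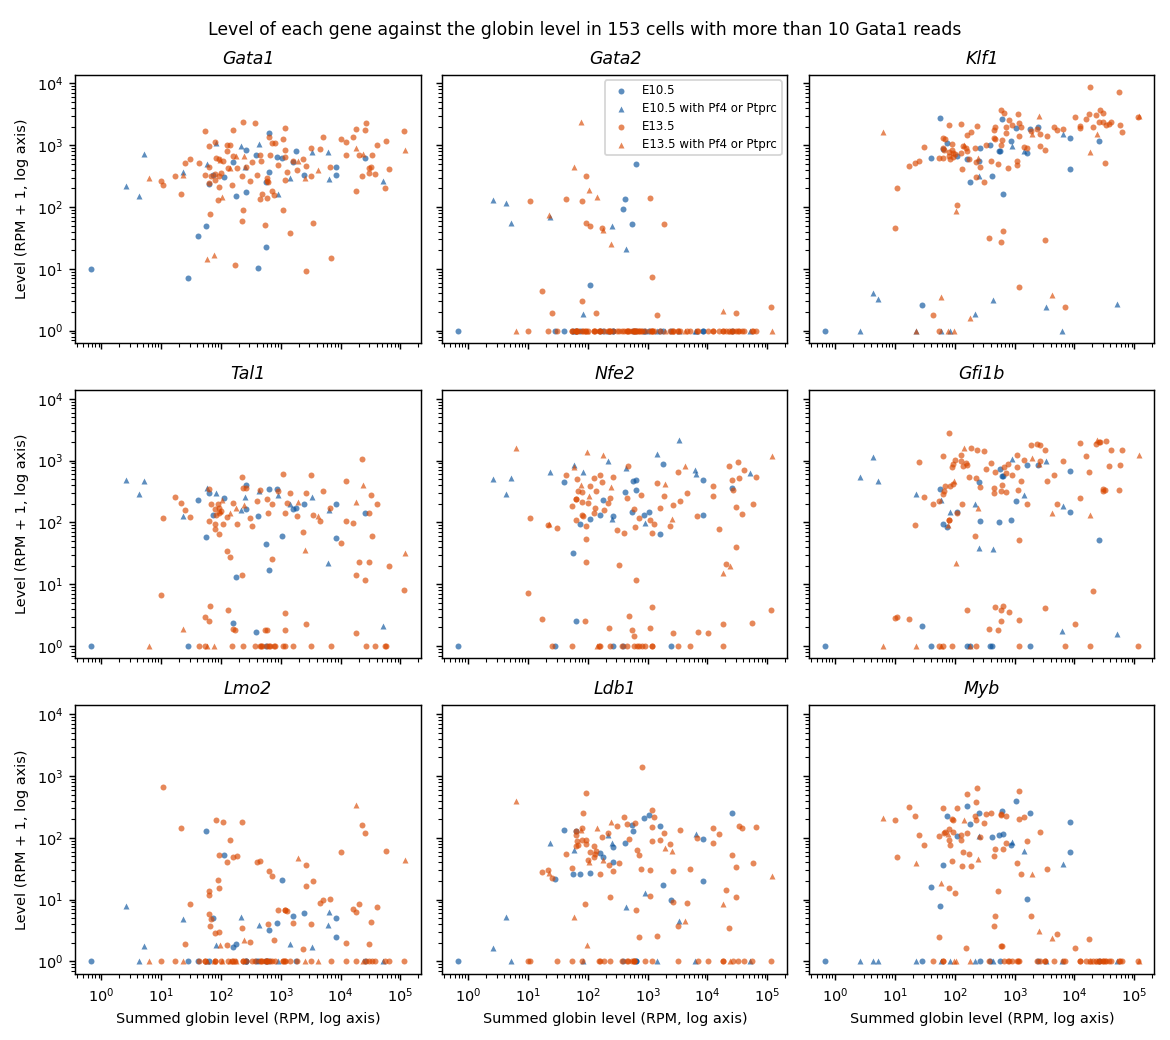
Level of each member (RPM + 1, log axis) against summed globin (RPM, log axis) in the *Gata1* cells, blue for E10.5 and orange for E13.5, with triangles for cells with more than 10 *Pf4* or *Ptprc* reads. *Klf1* climbs with globin, *Gata2* lies mostly at the left with no cell above 1.39 RPM in the highest bin, and E13.5 cells lose *Myb* on the right.

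In all, 2 of the 9 members tested were at least 2-fold higher in the highest bin (*Gata1*, *Klf1*), against 10.8% of the 9434 genes with a mean of at least 5 RPM over these cells, and 2 were at least 2-fold lower (*Gata2*, *Myb*), against 26.4%. *Gata1* chose these cells, so nothing is read from its place in this count. The median log2 ratio was -0.04 over the members and -0.30 over all genes. Without pool 3 the log2 ratio of *Gata1* was 0.92, and *Klf1* (1.80) was then the 1 member at least 2-fold higher. In erythroid-marked cells taken whatever their *Gata1* reads, a class added after seeing the data, *Gata1* was at 0.74 and *Klf1* again the 1 member, at 1.29. The erythroid target list, globins not included, had 13 of 14 genes at least 2-fold higher and 0 lower, with *Ermap* (0.93) the smallest and *Trim10* (9.89), *Slc4a1* (9.70) and *Epb42* (7.45) the largest log2 ratios. *Slc4a1* encodes the anion exchanger of the red cell membrane and *Epb42* a protein bound to it. Of 16 complex partners and co-factors tested, 3 were higher and 3 lower, with *Runx1* (873 RPM in the lowest and 96.3 RPM in the highest bin) at -3.18 and *Ldb2* at 1.5. Of 16 other blood transcription factors, 4 were higher and 5 lower, with *Sox6*, a factor of red cell maturation, at 4.22 (20.9 and 389 RPM) and *Spi1*, which encodes the myeloid factor PU.1, at -4.99 (108.96 and 3.43 RPM). The 3 *Ptprc* cells of the lowest bin held 73.4% of its *Spi1* and 52.97% of its *Runx1* reads, and without them the log2 ratios were -3.18 and -2.19.

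The genes whose pattern was most like these members in *Gata1* cells, by Pearson r of log2(RPM + 1) over those cells and 7544 genes, included erythroid genes for *Klf1* and *Gata1*. *Klf1* was closest to *Ermap* and *Alad* (both 0.75) and *Blvrb* (0.74), followed by *Slc25a21* and *Mt1* (both 0.72). *Gata1* was closest to *Smim1* (0.47) and *Car2* (0.45). *Myb* was closest to *Cdk6* (0.53), a cell cycle kinase, and *Spn* (0.49), a sialoglycoprotein of leukocytes. *Gata2* was closest to *Mgat5* (0.50) and *Prkg1* (0.49). Over all cells *Gata1* was closest to *Car2* (0.78), *Cited4* (0.77), *Klf1* (0.77) and *Gfi1b* (0.76).

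Between stages, *Klf1*, *Gfi1b* and *Lmo2* were higher in the *Gata1* cells of E13.5 (73.9% of them) than in the 40 of E10.5. *Klf1* stood at 1368 RPM (cells from 0 to 8859, median 1003) against 674 RPM (0 to 2731, median 608), a log2 ratio of 1.02 with pools at 0.79 to 1.01. *Gfi1b* stood at 594 RPM (0 to 2770, median 367) against 291 RPM (0 to 1138, median 147.2), a log2 ratio of 1.03 with pools at 0.82 to 1.73. *Lmo2* stood at 23.9 against 7.18 RPM (1.74, pools 1.47 to 4.55), with 27 of the E13.5 and 4 of the E10.5 cells above 10 reads. The cells of both stages overlapped for each of these genes.

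*Gata1* (log2 ratio 0.46), *Gata2* (0.02), *Ldb1* (0.34) and *Myb* (0.12) were within 2-fold. The pools of *Gata2* ran from -0.79 to 5.89 and those of *Myb* from -2.03 to 0.46, and *Gata2* was at -1.14 without pool 3 and at 1.13 without pool 4. *Nfe2* and *Tal1* stood lower at E13.5, *Nfe2* at 237 against 381 RPM (-0.68, pools -0.90 to -0.06) and *Tal1* at 119.03 against 169.2 RPM (-0.51, pools -0.71 to 0.10). Thus 3 of 9 members were at least 2-fold higher and 0 lower, beside 12.4% and 12.3% of 9246 genes. The summed megakaryocyte genes stood at 6525 RPM in E10.5 and 2317 RPM in E13.5 *Gata1* cells. Without cells with *Pf4* or *Ptprc* the log2 ratio of *Nfe2* was 0.00, that of *Klf1* 0.63 and that of *Gfi1b* 1.39, so the stage values of *Nfe2* and *Klf1* moved with the share of such cells. The target list had 10 of 14 genes at least 2-fold higher at E13.5 and 0 lower, led by *Slc4a1* at 5.87.

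Between sorts at E13.5 only 7 Lgr5-GFP+ *Gata1* cells could be set beside the bulk cells, and at E10.5 only 3. Of the 9 members 7 differed by at least 2-fold, beside 52.8% of 9065 genes, a background so broad that the count says little about the members. The Lgr5-GFP+ cells were lower in *Gata2* (log2 ratio -2.12), *Klf1* (-1.82), *Myb* (-1.75), *Ldb1* (-1.07) and *Gfi1b* (-1.01) and higher in *Nfe2* and *Lmo2* (1.09). For *Lmo2* the class medians were 0.814 and 0.867 RPM, 1 of the 7 cells held 333 RPM, and without pool 5 the ratio turned to -0.98. *Klf1* had 0, 0.603, 1.42, 2.82, 547, 785 and 2103 RPM in the 7 cells, against a median of 1032 RPM in bulk. The 4 cells near 0 include 3 with more than 10 *Pf4* reads and more than 10 reads of at least 3 other megakaryocyte genes, and in those 3 cells *Nfe2* stood at 827, 1228 and 1378 RPM. The higher *Nfe2* of the Lgr5-GFP+ cells, with a log2 ratio of 1.52, turned to -1.16 without cells with *Pf4* or *Ptprc*. Of the 3 E10.5 Lgr5-GFP+ *Gata1* cells, 2 were of this kind as well, at 0 RPM *Klf1* and 643 and 855 RPM *Nfe2*. The third had 8.81 RPM *Gata1* and 0 of the other 8 members with reads.

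Cells with more than 10 *Pf4* reads numbered 71 and were a mixed class. Only 15 of them had more than 10 reads of at least 3 other megakaryocyte genes, 9 in E10.5 bulk, 2 in E10.5 Lgr5-GFP+, 1 in E13.5 bulk and 3 in E13.5 Lgr5-GFP+. These 15 were named megakaryocyte-marked. Their *Pf4* level was 19653 RPM against 355 RPM in the other 56, and their summed megakaryocyte genes ran from 2589 to 85720 RPM per cell, with all 10 genes read. In the other 56 cells the summed leukocyte genes stood at 2450 RPM, hepatoblast genes at 1777 RPM and erythroid genes at 870 RPM.

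The megakaryocyte-marked cells shared *Gata1*, *Tal1*, *Nfe2* and *Gfi1b* with *Gata1*-only cells and lacked *Klf1* and *Myb*. *Gata1* was above 10 reads in all 15 at 146.7 to 1079 RPM (median 569), against 6.03 to 2402 RPM (median 430) in the *Gata1*-only cells, a log2 ratio of 0.02. *Nfe2*, named for erythroid cells but needed for platelets, ran from 263 to 2186 RPM (median 711.4) in the 15 and from 0 to 947 RPM (median 119.1) in *Gata1*-only cells. *Tal1* stood at 222 RPM (1.13 to 477, median 228) against 121.2 RPM, and *Gfi1b* at 328 RPM (0 to 1138, median 198.4) against 525 RPM. *Klf1* stood at 4.89 RPM, with 14 cells at or under 10 reads and 1 cell at 84 RPM, against 1334 RPM and 95.1% of cells above 10 reads among *Gata1*-only cells. *Myb* had 2 reads in the 15 cells together and 13221 in *Gata1*-only cells, a log2 ratio of -9.87 with an exact interval of -12.91 to -8.01. *Gata2* was above 10 reads in 7 of the 15 cells and in 13 *Gata1*-only cells (10.6%), at 40.9 and 15.4 RPM. *Lmo2* stood at 1.66 against 20.7 RPM and *Ldb1* at 20.2 against 73.7 RPM.

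The 13 *Gata1* cells with *Pf4* that were not megakaryocyte-marked looked different, with *Klf1* at 1315 RPM and above 10 reads in 12 of 13, *Myb* at 70.1 RPM and summed erythroid genes at 3258 RPM against 368 RPM in the megakaryocyte-marked cells. A *Pf4* read count over 10 therefore did not separate the members' patterns by itself. Taken as a whole, the 71 *Pf4* cells had 1 of 9 members at least 2-fold higher than *Gata1*-only cells (*Gata2*, log2 ratio 1.58), beside 26.5% of 10250 genes, and 6 at least 2-fold lower, beside 10.9%. The 6 were *Klf1* (-2.30), *Lmo2* (-1.995), *Myb* (-1.92), *Ldb1* (-1.61), *Gata1* (-1.47) and *Gfi1b* (-1.43). More than 10 *Gata1* reads was the condition for *Gata1*-only cells and not for *Pf4* cells, so that the direction of *Gata1* here was fixed in part by the choice of cells, and genes found with it stand with it. With the 15 megakaryocyte-marked cells in their place, 2 members were higher (*Nfe2*, *Gata2*) and 4 lower. Leaving out pool 3 ended the *Gata2* call, at 0.26. With the erythroid-marked *Gata1*-only cells alone as reference, a setting added after seeing the data, 1 member was again higher and 6 lower.

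**Figure D3:**
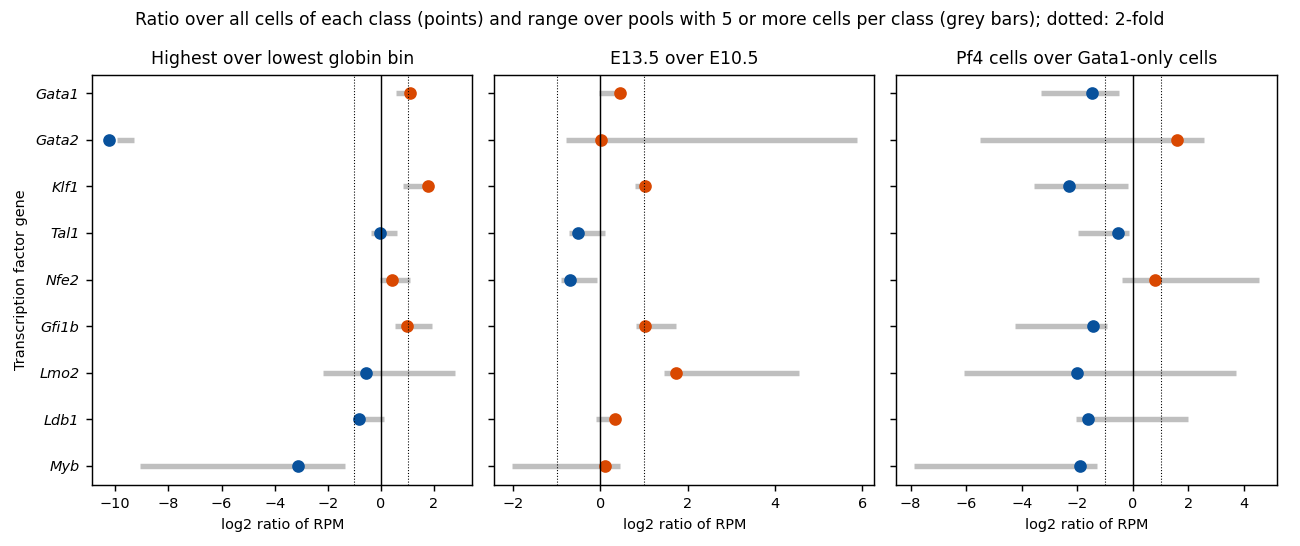
Log2 ratio of RPM (horizontal axis) for each member over all cells of 2 classes (points, orange above 0 and blue below) and its range over pools with at least 5 cells in each class (grey bars), in 3 comparisons. *Gata2* at -10.22 and *Myb* at -3.12 are lowest along globin, and the pools of *Gata2*, *Nfe2*, *Lmo2* and *Ldb1* span 0 for the *Pf4* cells.

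Cells with more than 10 *Ptprc* reads numbered 15, all at E13.5, 8 in bulk and 7 in Lgr5-GFP+, although the sort excluded CD45 protein. Of these, 9 also had more than 10 *Pf4* reads, leaving 6 bulk cells for comparison with the *Gata1*-only cells. Their summed leukocyte genes ran from 1448 to 17247 RPM per cell with all 9 read, and their summed erythroid genes from 0.912 to 6.97 RPM. *Klf1* was at 10 reads in the 6 cells together, at 0 to 2.79 RPM per cell, and *Lmo2* at 0 reads, at least 45.9-fold lower than in *Gata1*-only cells when 3 reads over the 6 cells are taken as the floor.

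Some members were read in the *Ptprc* cells. *Nfe2* had values of 2.11, 93.9, 212, 304, 391 and 801 RPM, *Gata2* of 0, 0, 5.29, 72.97, 134.4 and 440 RPM, and *Myb* of 0, 0.845, 17.8, 38.3, 49.7 and 118.05 RPM. *Gata2* was the 1 member at least 2-fold higher than in *Gata1*-only cells (114.4 against 15.4 RPM, log2 ratio 2.90), beside 23.1% of 9192 genes, and 7 members were at least 2-fold lower, *Gata1* (-3.31) among them, beside 40.4%. As for the *Pf4* cells, the reference class was chosen by its *Gata1* reads and the *Ptprc* cells were not, so that nothing is read from the direction of *Gata1*, nor from this count. Without pool 4 the *Gata2* ratio turned to -2.21. *Spi1*, the myeloid factor that binds and opposes GATA1, stood at 1178 RPM in the 6 cells and 4.91 RPM in *Gata1*-only cells, and *Runx1* at 3613 against 188.5 RPM.

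The cells with both *Gata1* and *Ptprc* were 3, all in E13.5 bulk. The 2 without *Pf4* had *Gata1* at 13.6 and 328 RPM, *Gata2* at 440 and 72.97 RPM, *Klf1* at 2.55 and 0 RPM and *Spi1* at 1850 and 730 RPM. They also held *Hdc*, a histamine-making enzyme of mast cells and basophils, at 674 and 2841 RPM, and *Kit*, the stem cell factor receptor, at 265 and 705.99 RPM. The third, with *Pf4*, had the highest *Gata2* of any *Gata1* cell (2380 RPM), *Gata1* at 15.6 RPM, *Klf1* at 0 RPM and *Cpa3*, a mast cell protease, at 589 RPM. No cell type name was given to these cells. Of the 8 mast cell and basophil genes only 4 had reads in any cell, and 2 passed 10 reads in a *Gata1* cell. The limit of 3 marker genes could therefore not be reached, and missing it says nothing about the 3 cells. *Gata2* was above *Gata1* per kilobase in 2 of the 3. The 9 cells with *Pf4* and *Ptprc* had *Csf1r*, a macrophage receptor, at up to 1540 RPM, and 5 of them had more than 10 reads of no member.

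**Figure D4:**
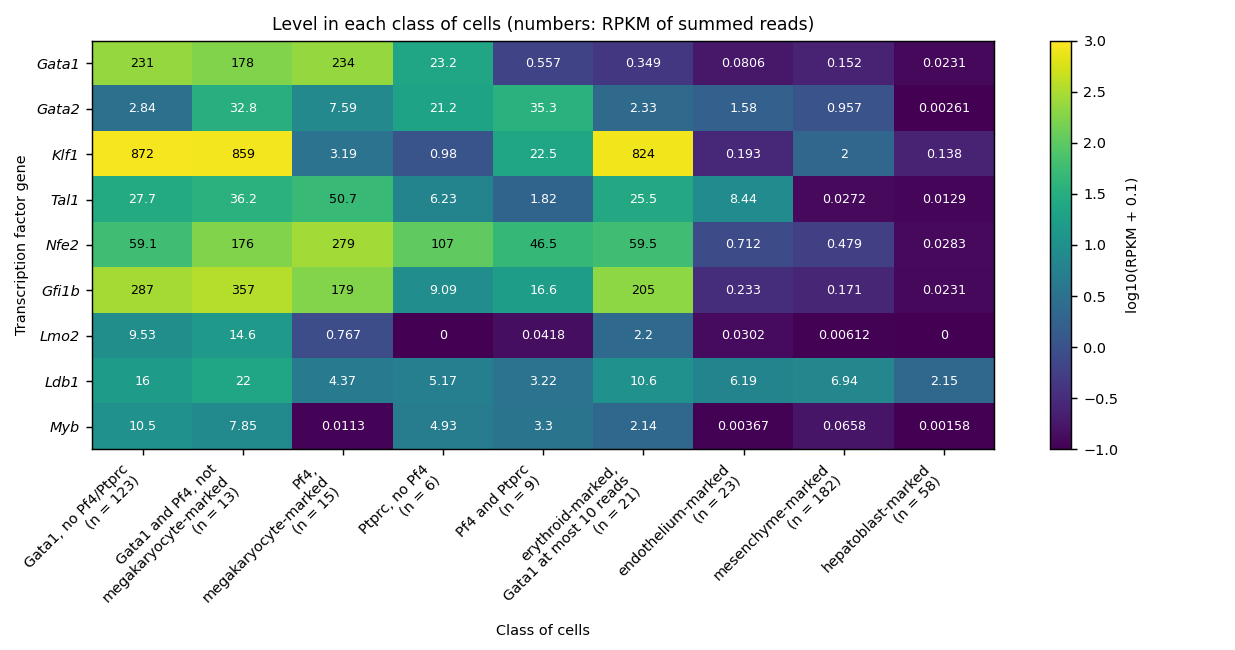
RPKM of summed reads for each member (rows) in 9 classes of cells (columns, n under each name), coloured on a log10 scale. *Klf1* falls from 872 RPKM in *Gata1* cells without *Pf4* or *Ptprc* to 3.19 in megakaryocyte-marked cells, where *Nfe2* is at 279, and *Ldb1* is above 2 RPKM in each of the 9 columns.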

How the data were processed

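Reads, single-end, were mapped by the authors with STAR 2.6.0c (GRCm38) and those with a unique alignment were counted per Ensembl gene with Subread 1.6.2, after which cells with many mitochondrial or spike-in reads, few reads or few genes were removed. The deposited values are raw counts, whole reads per gene and cell, in a table whose 653 columns match the sample titles, 203 and 211 of them in the bulk and Lgr5-GFP+ groups at E10.5 and 159 and 80 at E13.5. *Gata1* cells numbered 153, of which 113 were from E13.5 and 123 were *Gata1*-only cells. Full-length reads without strand were counted, so overlapping or antisense genes cannot be told apart, and reads are not independent molecules. The 365 index pairs include 230 used in more than 1 pool.

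Counts were summed over cells and divided by their total reads (RPM), and by union exon length of GENCODE M21 for RPKM. A gene was tested when its mean was at least 5 RPM over the cells of both classes. A class at 0 was set to 3 reads. Shares carry exact Clopper-Pearson and levels exact Poisson intervals (scipy 1.17.1). The ratio script was tested on simulated data. With 1 sample per group no count model was fitted. Alternatives changed the read limit, scaling, filter, depth, stage, sort, marker cells and pools. The named genes were the 10 members, the 3 largest and 3 smallest ratios of each list, and the 5 genes most like 4 members, of which a part is printed. The members and lists were chosen with earlier results of these data known. Doublets were not called. *Lyl1*, *Cbfa2t3* and *Irf8* of the lists were at 0 in every cell. In the list of mast cell and basophil genes only 4 of 8 had reads in any cell.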

Additional observations from a re-analysis of the deposited data

Results flagged for a closer look

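Members were also read in cells outside the comparisons. Of the 453 cells with no more than 10 reads of each of *Gata1*, *Pf4* and *Ptprc*, more than 10 reads were found for *Ldb1* in 31.1%, *Klf1* in 6.84%, *Gata2* in 4.86%, *Tal1* in 4.42%, *Nfe2* in 3.75%, *Myb* in 3.75% and *Gfi1b* in 2.65%, above the share that a count of 0 allows. Of these cells 21 were erythroid-marked, 19 of them in E13.5 bulk, and they held 15 of the 31 *Klf1* cells, at 1260 RPM, and 9 of the 12 *Gfi1b* cells, at 376 RPM, beside *Gata1* at 0.850 RPM. The 23 endothelium-marked cells held 7 of the 20 *Tal1* cells, at 36.9 RPM, and 4 of the 22 *Gata2* cells, at 8.51 RPM. The mesenchyme-marked cells, 40.2% of the whole, held 77 of the *Ldb1* cells, at 31.95 RPM, and 6 of the *Gata2* cells.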

How the results depend on the processing

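No paired analysis was possible because the labels tie no cell to a replicate, embryo or sort, and a group therefore counted as 1 sample. Counts below are of the 9 members. With at least 1 *Gata1* read in place of more than 10, the shares were 53.7% in E10.5 bulk, 10.9% in E10.5 Lgr5-GFP+, 85.5% in E13.5 bulk and 27.5% in E13.5 Lgr5-GFP+. Along globin 4 members were then at least 2-fold higher and 0 lower, with *Myb* at 0.25. Between stages 8 were higher, between sorts *Nfe2* was at -0.51 and *Lmo2* at -0.20, 2 were higher and 3 lower in *Pf4* cells, and 2 were higher in *Ptprc* cells. With more than 50 *Gata1* reads 1 was higher along globin, 1 higher and 1 lower at E13.5, and 4 differed between sorts. With 3 globin bins 1 was higher, and in E10.5 cells alone *Myb* was at 2.96. With a difference of mean log2(RPM + 1), 2 were lower at E13.5, 4 differed between sorts, 0 were higher in *Pf4* cells and 2 in *Ptprc* cells. Thinned to 400000 reads, 1 was lower at E13.5 and 4 differed between sorts. Without *Pf4* and *Ptprc* cells, 1 was lower at E13.5 and 3 differed between sorts, with *Nfe2* at -1.16. In Lgr5-GFP+ cells alone 5 were higher at E13.5. With more than 50 *Pf4* or *Ptprc* reads 2 were higher in *Pf4* cells. Of the settings added after seeing the data, erythroid-marked cells gave 1 higher along globin, and megakaryocyte-marked cells gave 2 higher, with *Gata1* at 0.0199. Leaving out 1 pool at a time gave 13.04% (without pool 4) to 22.4% for E10.5 bulk and 60.8% to 78.4% (without pool 2) for E13.5 bulk, 1 (without pool 3) to 3 members higher along globin, 0 to 1 (without pool 3) lower at E13.5, 0 (without pool 3) to 2 (without pool 5) higher in *Pf4* cells and 0 (without pool 4) to 2 (without pool 3 or pool 5) in *Ptprc* cells. It gave -0.98 (without pool 5) to 2.09 for *Lmo2* between sorts and -2.21 (without pool 4) to 3.23 for *Gata2* in *Ptprc* cells. The causes were not tested. Of the values of single members, 8 reversed the sign of a 2-fold difference. Without such a reversal, 344 moved by less than the spread between pools and 304 by more or had no such spread.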
